A study of Bos taurus with 15 samples.

Results

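The genes described here encode the factors that start and extend protein synthesis: those whose symbol in the array's annotation begins with EIF and a digit (initiation factors and their regulators) or with EEF (elongation factors and the enzymes that modify them). The rule gave 51 of the 9155 genes the array names, 40 with an EIF and 11 with an EEF symbol. Each gene was read at 1 probe set, the one with the highest mean over all arrays. They had 69 probe sets in all: 34 genes had 1, 16 had 2 and EIF4H had 3.

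Initiation begins when the small ribosomal subunit, held open by the EIF1, EIF1A and EIF3 factors, takes up the initiator tRNA from EIF2 bound to GTP. EIF4E binds the cap of a messenger RNA, EIF4G bridges it to EIF3, and the helicase EIF4A unwinds the leader so that the small subunit can scan to the start codon. EEF1A then delivers each aminoacyl-tRNA and EEF2 moves the ribosome along. An egg is known to carry a store of messenger RNAs, many of them translated only after maturation or fertilisation, and cattle embryos are known to begin major transcription of their own genome around the 8-cell to 16-cell stage.

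RNA of bovine (Bos taurus) oocytes and of embryos of known stage was amplified in 3 rounds and hybridised to Affymetrix Bovine Genome arrays, 15 in all. The groups were 1-cell embryos (2 arrays), 2-cell, 4-cell, 8-cell and 16-cell embryos (1 array each), morulae (3 arrays) and blastocysts (3 arrays), with oocytes (3 arrays) as the starting point. Oocytes were taken with their cumulus from follicles of 2 to 6 mm and matured for 20 hours, then fertilised in vitro and vortexed to strip the cumulus before culture in SOF medium. The protocol is the same text for every stage, so the point of this sequence at which the oocyte samples were taken is not given in the sources used here, nor are the genotype of the animals and how many oocytes or embryos each array pooled. The labels call the replicates biological, and the p-values measure only the spread between these arrays.

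Signals are intensities on a linear scale. Mean signal per array lay between 558 and 717 and median signal between 39.7 and 61.7. Changes are differences of log2(signal + 16), which understates changes of low signals, with limma's adjusted p under 0.05 as the threshold. How the arrays were scaled is not given in the sources used here. If they share a common scale, a signal shows a transcript's share of the amplified RNA. Less RNA per embryo, fewer copies per cell and a smaller share cannot be told apart. The stage labels fitted the cells' defining markers: 7 oocyte markers summed to 760 to 1049 in morulae, against 28462 to 46680 in oocytes, and 6 markers of embryonic epithelium summed to 12822 to 30908 in morulae, against 232 to 307 in oocytes. Markers of cumulus and granulosa cells, which could remain on an oocyte, summed to 9187 to 10668 in morulae, 10068 to 11494 in blastocysts and 6150 to 6856 in oocytes. Of these 12 markers, 1 rose in morulae against oocytes (HAS2, by 2.53, which alone gave 8622 to 9257 of the morula sums) and 3 fell (VCAN, STAR and TNFAIP6, with changes of -5.17, -3.68 and -3.45), while FSHR and CYP19A1 stayed at or below 44.8 on the arrays of these 3 stages. The 4 blood cell markers summed to 1466, 1501 and 310.03 in morulae, 92.4 to 386 in blastocysts and 82.6 to 165 in oocytes, and 1 of them, HBB, rose in morulae (4.36). The part of these cells in the results was not tested. Cyclophilin control probe sets at the middle of the transcript, set against those at its 3′ end to show how far transcripts were copied, gave a ratio of 0.178 to 0.322 in morulae, 0.499 to 0.766 in blastocysts and 0.0141 to 0.102 in oocytes. The GAPDH ratio was 0.100 to 0.625 in morulae, 0.339 to 0.643 in blastocysts and 0.0374 to 0.237 in oocytes, so that morulae and oocytes overlapped. The EEF1A1 ratio ran the other way, at 0.00226 to 0.00297 in morulae, 0.00109 to 0.00239 in blastocysts and 0.0921 to 0.215 in oocytes. The part of these ratios in the results was not tested.

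The arrays numbered 3 stood apart from the other replicates of their stage. Of the 51 genes, 11 and 12 differed by at least 4-fold between oocyte 3 and oocytes 1 and 2, while oocytes 1 and 2 differed so at 1. Morula 3 differed at 7 and 6 genes from morulae 1 and 2, which differed from each other at none of the 51. Blastocyst 3 differed at 3 genes from each of blastocysts 1 and 2, which differed from each other at none. Of all genes, 14.9% to 16.1% differed that far between oocyte 3 and the other oocytes and 1.98% between oocytes 1 and 2. The shares were 12.7% and 11.3% for morula 3, against 0.295% between morulae 1 and 2, and 8.71% and 12.3% for blastocyst 3, against 1.88% between blastocysts 1 and 2. Oocyte 3 gave the highest oocyte signal for 24 of the 51 genes and the lowest for 20. Added bacterial spike-in transcripts gave a signal on 9 arrays (oocytes 2 and 3, 1-cell 2, the 4 single arrays, morula 3 and blastocyst 3) and stayed near background on 6.

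Most of the change lay between the oocyte and the morula. There 20 of the 51 genes rose (39.2%, where 17.8% of all 9155 genes rose), 3 fell (5.88%, where 8.67% of all genes fell) and 28 did not pass. The median change of the 51 genes was 1.44 on the log2 scale, against 0.14 over all genes. Subunits of EIF3 made up 8 of the 20 rises and the EEF genes 5, whereas EIF1, EIF4E and EIF4A2 changed by 0.20, -0.15 and -0.09 and did not pass. The 3 falls were EIF2AK1, EIF4E3 and EIF1B.

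**Figure D1:**
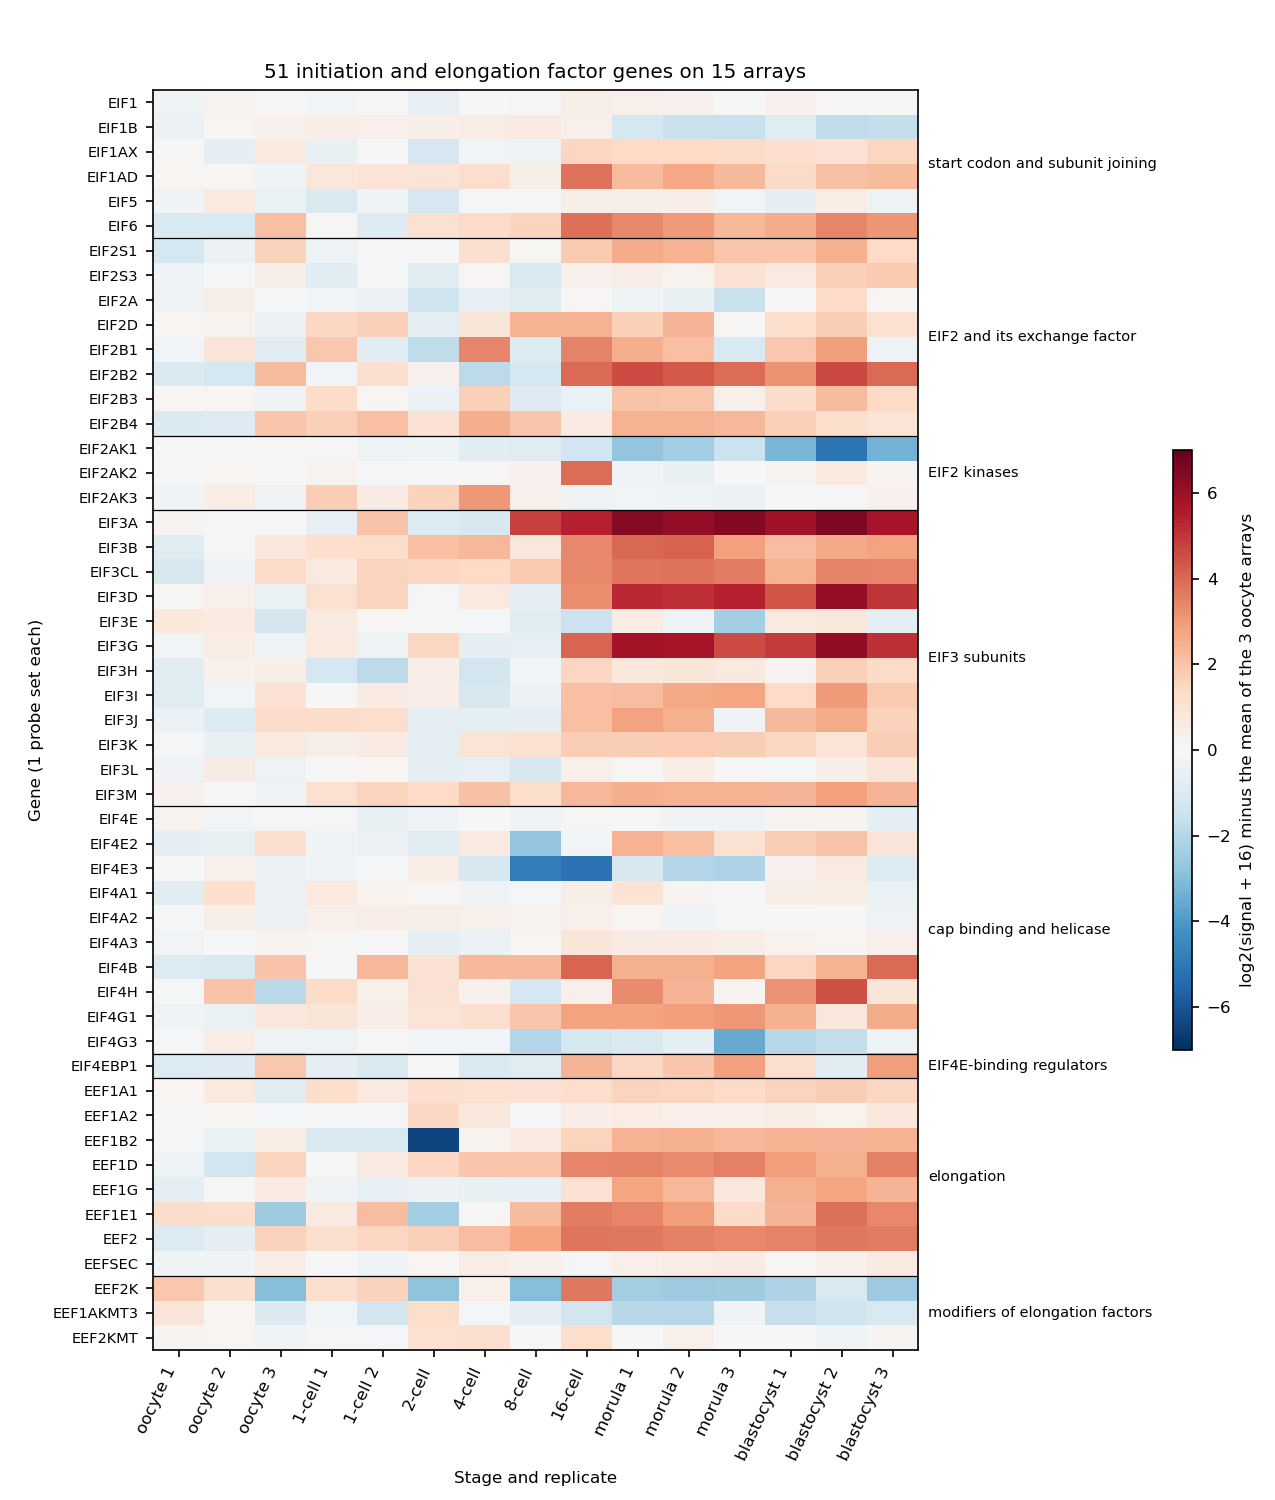
Change of each of the 51 genes (rows, grouped by role) on each of the 15 arrays (columns, in stage order), as log2(signal + 16) minus the mean of the 3 oocyte arrays; red is higher and blue lower than that mean. EIF3A, EIF3D, EIF3G and EIF2B2 are dark red in morulae and blastocysts, EIF2AK1 is blue there, and EIF1, EIF4E and EIF4A2 stay pale throughout.

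Among the 6 genes of start codon recognition and subunit joining, 3 rose, 1 fell and 2 did not pass in morulae against oocytes. EIF1 and EIF1B encode closely similar proteins that keep the scanning ribosome from stopping at wrong codons. EIF1 gave 9622, 9395 and 7467 in morulae, against 6241, 8711 and 8135 in oocytes, and the change of 0.20 (SE 0.22) had an adjusted p of 0.588. Its signal lay between 5019.9 and 10225 on all 15 arrays, and the groups overlapped. EIF1B gave 1393, 1122 and 1144 in morulae, against 2516, 3617 and 4087 in oocytes, so that the groups did not overlap. EIF1B fell by 1.45 on the log2 scale (SE 0.34, adjusted p = 0.0134). It had stood between 4262 and 5169 on all 6 arrays from the 1-cell to the 16-cell stage, above every oocyte array, and was low only on the morula and blastocyst arrays.

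EIF1AX, the X-linked gene of EIF1A, which helps the small subunit scan, gave 7479, 7549 and 6835 in morulae, against 2778, 1802 and 4577 in oocytes. All morula arrays lay above all oocyte arrays, a change of 1.35 (SE 0.35, adjusted p = 0.0223). EIF6 encodes a protein that holds the large ribosomal subunit apart from the small one. It gave 3888, 3008 and 1904 in morulae, against 168, 165 and 1654 in oocytes. Oocyte 3 alone came near the morula arrays, and the change of 2.89 (SE 0.79, adjusted p = 0.0293) was 3.96 without that array. EIF1AD, whose protein has an EIF1A-like domain, rose by 2.39 (SE 0.31, adjusted p = 5.84e-04) at low signals, 114, 164 and 119 in morulae against 14.6, 15.2 and 7.23 in oocytes. EIF5, the GTPase activator of EIF2, changed by 0.22 and did not pass.

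Of the 8 genes of EIF2, its exchange factor EIF2B and the related-by-name EIF2A and EIF2D, 3 rose and none fell. EIF2S1 encodes the alpha subunit of EIF2, whose phosphorylation slows initiation in stress. EIF2S1 gave 2959, 2586 and 1842 in morulae, against 191, 357 and 1498 in oocytes. The groups did not overlap, but oocyte 3 was several times above the other oocytes; the change was 2.31 (SE 0.66, adjusted p = 0.0351), and 3.13 without oocyte 3. EIF2S3, the gamma subunit that binds GTP and the initiator tRNA, did not pass in morulae (0.58, SE 0.42).

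EIF2B recharges EIF2 with GTP and was the complex with the largest single rise outside EIF3. Its beta subunit, EIF2B2, gave 5947, 4910.2 and 3654 in morulae, against 109, 88.8 and 1152 in oocytes. Every morula array was above every oocyte array, with oocyte 3 again the highest of its stage. The change was 4.26 (SE 0.86, adjusted p = 0.00661), or 5.38 without oocyte 3. The delta subunit EIF2B4 gave 4935, 4931 and 4617 in morulae, against 438, 487 and 3506 in oocytes, where oocyte 3 was again the highest; it rose by 2.38 (SE 0.68, adjusted p = 0.0339), and by 3.34 without oocyte 3. EIF2B3 (gamma) and EIF2B1 (alpha) changed by 1.44 and 1.19 and did not pass; without morula 3, EIF2B3 changed by 1.97 and passed (adjusted p = 0.0114). EIF2B1 differed widely between replicates, with 556, 413 and 30.5 in morulae, against 68.6, 172 and 44.1 in oocytes. EIF2D, which can place the initiator tRNA without EIF2, changed by 1.38 (adjusted p = 0.104) and passed with the replicate number as a block (adjusted p = 0.0379) and without morula 3 (2.01, adjusted p = 0.00719). EIF2A had low signals throughout, 1.16 to 107 over all arrays, and changed by -0.78.

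Of the kinases that phosphorylate EIF2S1, 3 were measured and 1 of them fell in morulae. EIF2AK1, the heme-regulated kinase HRI, gave 458, 590.4 and 1147 in morulae, against 3382, 2919.6 and 3426 in oocytes. Its signal was lower on each later single array, 2596 at the 2-cell, 1878 at the 4-cell, 1816 at the 8-cell and 1245 at the 16-cell stage, and lowest in blastocysts at 342, 76.5 and 314. It fell by 2.23 in morulae (SE 0.55, adjusted p = 0.0188) and fell by 3.87 in blastocysts (SE 0.55, adjusted p = 0.00102), both against oocytes. A second probe set of the gene fell as well, with changes of -2.26 in morulae and -3.02 in blastocysts. EIF2AK2 is the kinase PKR activated by double-stranded RNA. At the probe set used it lay between 5.45 and 33.3 on 14 arrays and at 439 on the 16-cell array. EIF2AK3, the endoplasmic reticulum kinase PERK, lay at 223 on the 4-cell array and between 6.47 and 80.5 on the other arrays; neither passed.

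EIF3, the largest initiation factor, forms the platform between the small subunit and the EIF4F complex on the cap. Of its 12 measured genes 8 rose and none fell, with a median change of 2.51. EIF3A, the large core subunit, gave 4617, 3965 and 4819 in morulae, against 47.7, 35.6 and 39.8 in oocytes. EIF3G, an RNA-binding subunit, gave 5173, 4872 and 2142 in morulae, against 63.8, 113 and 56.9 in oocytes. EIF3D, a subunit that can itself bind caps, gave 1094, 985 and 1249 in morulae, against 14.6, 21.3 and 5.05 in oocytes. In all 3 genes each morula array was far above each oocyte array, oocyte 3 included. EIF3A rose by 6.30 (SE 0.59, adjusted p = 9.95e-05), EIF3G by 5.38 (SE 0.54, adjusted p = 1.41e-04) and EIF3D by 5.28 (SE 0.48, adjusted p = 8.60e-05).

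The core scaffold subunit EIF3B rose by 3.67 (SE 0.51, adjusted p = 8.16e-04). The gene labelled EIF3CL, in human a near copy of EIF3C so that its probe set may also measure that gene, rose by 3.72 (SE 0.61, adjusted p = 0.00221). EIF3I rose by 2.54, EIF3M by 2.48 and EIF3K by 1.75, with adjusted p of 0.0121, 3.07e-04 and 0.00702. The other 4 subunits did not pass. EIF3E gave 10944, 6209 and 1424 in morulae, against 12731, 11141 and 3054 in oocytes, with the array numbered 3 the lowest of both stages. EIF3L changed by 0.20 (SE 0.35) and EIF3H by 0.76 (SE 0.46). EIF3J, which helps EIF3 bind the small subunit, gave 7142, 5837 and 849 in morulae, against 773, 547 and 2471 in oocytes; its change of 1.68 (adjusted p = 0.188) became 2.65 (adjusted p = 0.0153) without morula 3 and 3.28 (adjusted p = 4.29e-04) without the arrays numbered 3. The overlap was between morula 3 and oocyte 3 only.

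**Figure D2:**
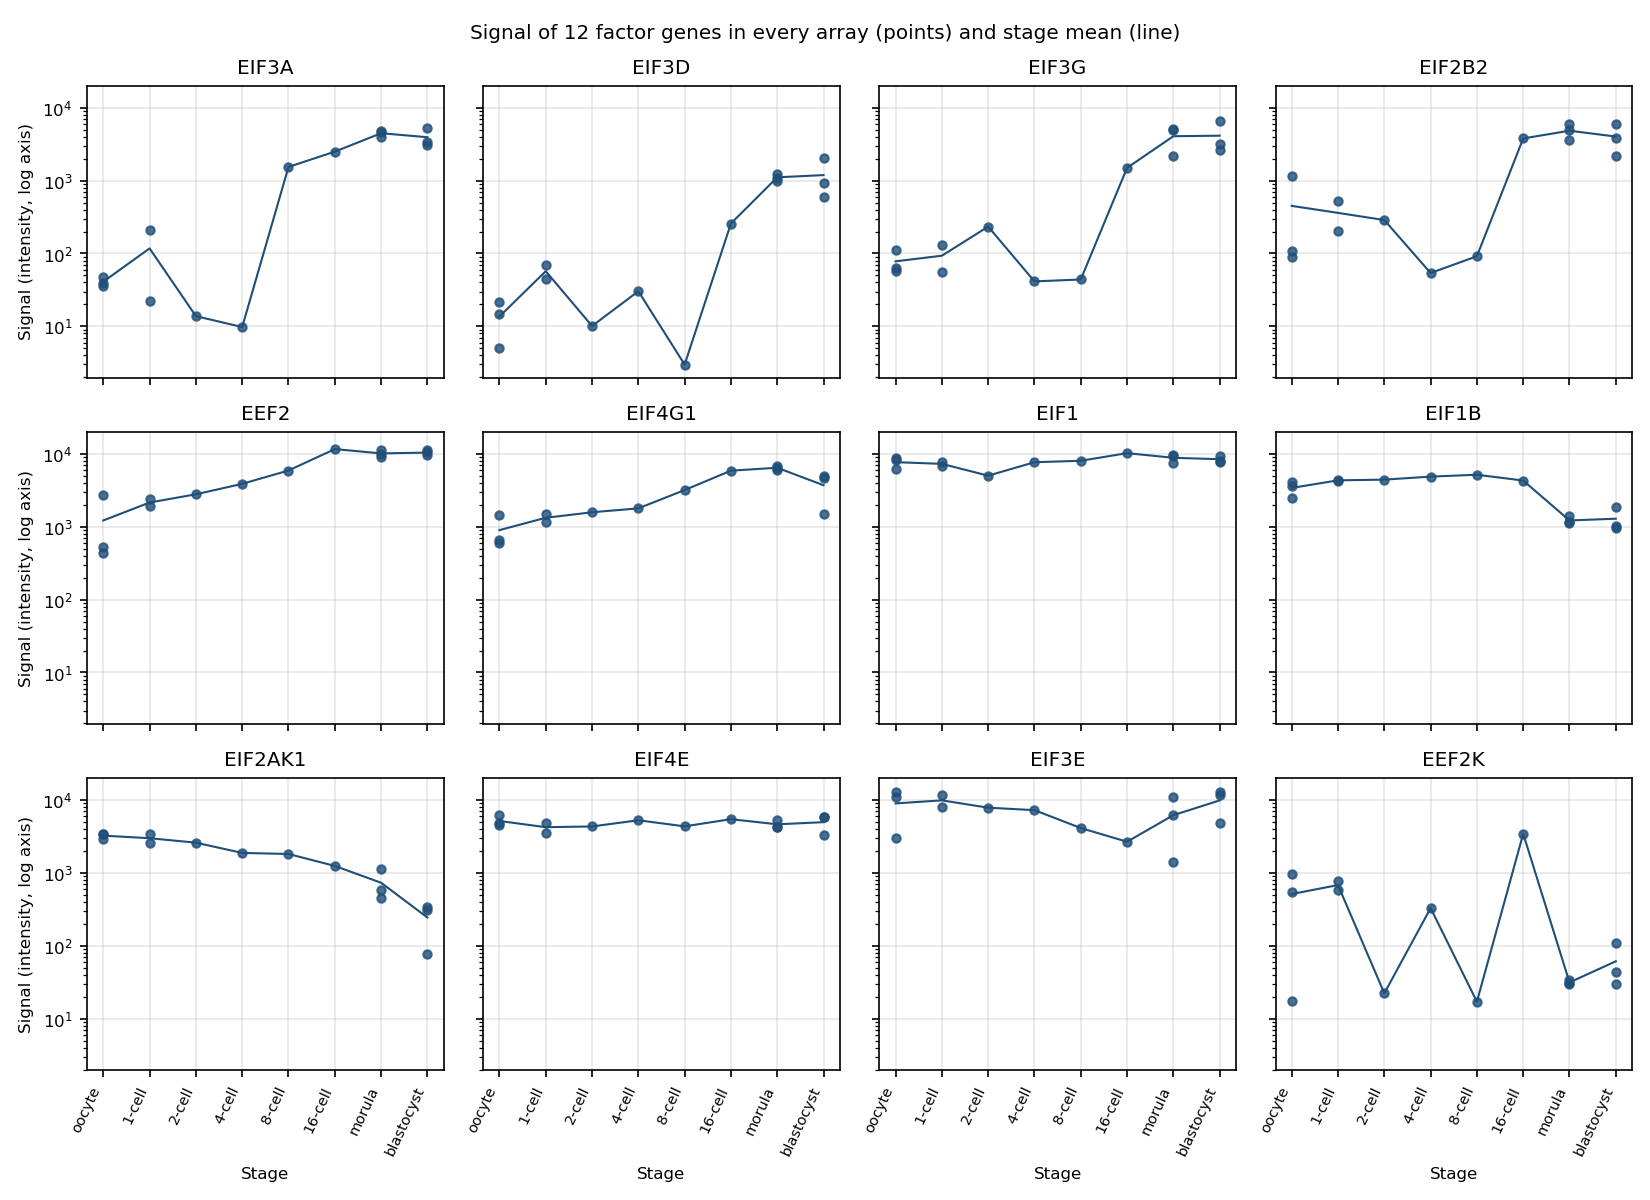
Signal (intensity, log axis) of 12 genes on every array, one point per array, with the line through stage means; oocytes, morulae and blastocysts have 3 points, 1-cell embryos 2 and the other stages 1. EIF3A is at 1539.8 on the 8-cell array, where EIF3D and EIF3G are still at 2.99 and 44, and EEF2K is at 3438 on the 16-cell array only.

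Of the 10 genes of cap binding and unwinding, 1 rose, 1 fell and 8 did not pass, with a median change of 0.46. EIF4E, the cap-binding protein, gave 5391, 4249 and 4271 in morulae, against 6134, 4507 and 4818 in oocytes. Its 15 arrays lay between 3299 and 6134, and the groups overlapped (change -0.15, SE 0.30, adjusted p = 0.791). EIF4A1, the helicase, gave 9565, 5526 and 4948 in morulae, against 2929.6, 10716 and 3639 in oocytes, and the change of 0.40 (SE 0.50) did not pass. EIF4G1, the scaffold that joins the cap-binding protein to EIF3, gave 6028, 6453 and 6853 in morulae, against 663, 591 and 1444 in oocytes. The morula arrays of EIF4G1 were close together and above all oocyte arrays, a rise of 2.93 (SE 0.51, adjusted p = 0.00288). Its paralog EIF4G3 gave 894, 1103 and 139.9 in morulae, against 1631, 2533 and 1380.4 in oocytes; the groups did not overlap, yet the change of -1.74 had an adjusted p of 0.137.

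EIF4E3, an atypical member of the cap-binding family, gave 334, 170.0 and 153 in morulae, against 769, 951 and 564 in oocytes. It fell by 1.78 (SE 0.50, adjusted p = 0.0336) and was lowest on the single 8-cell and 16-cell arrays, at 10.7 and 5.22. A second probe set of EIF4E3 gave 94.1 on the 8-cell and 115 on the 16-cell array, so these lows rest on 1 probe set. The helicase cofactor EIF4B gave 1441, 1438 and 1751 in morulae, against 116, 108 and 1003 in oocytes. Its groups did not overlap, with oocyte 3 again the highest oocyte array; the change of 2.60 (adjusted p = 0.0858) passed with the replicate block (adjusted p = 0.0272) and without oocyte 3 (3.60, adjusted p = 0.0133). EIF4A3, a helicase of the exon junction complex, and EIF4H, another helicase cofactor, changed by 0.53 and 1.97 and did not pass. EIF4EBP1, which binds EIF4E and keeps it from EIF4G, had low signals of 105, 152 and 305 in morulae, against 6.39, 7.43 and 144 in oocytes. Oocyte 3 overlapped the morula arrays; the change of 2.09 (SE 0.97) had an adjusted p of 0.171, and 0.0257 with the replicate block; without oocyte 3 it was 3.03 (adjusted p = 0.0419).

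Elongation factors rose in 5 of 8 genes and fell in none, with a median of 2.17. EEF2, the translocase, gave 11307, 10108 and 9015 in morulae, against 441, 525 and 2693 in oocytes. The 3 morula arrays were above all oocyte arrays, a rise of 3.53 (SE 0.57, adjusted p = 0.00190) or 4.35 without oocyte 3. The 3 subunits of the exchange factor that reloads EEF1A with GTP all rose: EEF1D by 3.44 (SE 0.62, adjusted p = 0.00347), EEF1B2 by 2.41 (SE 0.29, adjusted p = 3.65e-04) and EEF1G by 1.93 (SE 0.51, adjusted p = 0.0250). EEF1B2 gave 14299, 14623 and 12934 in morulae, against 2485, 1871 and 3801 in oocytes. The morula arrays were close together and far above every oocyte array, while the oocyte arrays differed more among themselves. EEF1A1, the tRNA carrier itself, gave 13798, 13366 and 11842 in morulae, against 5129.8, 7695 and 2630.3 in oocytes; its rise was 1.46 (SE 0.35, adjusted p = 0.0167).

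EEF1A2, the form of muscle and neurons in adult mammals, stayed between 8.74 and 58.9 on all arrays. EEF1E1, a scaffold protein of the aminoacyl-tRNA synthetase complex, gave 2966, 2107 and 689.6 in morulae, against 657, 645 and 33 in oocytes. The change of 2.56 (adjusted p = 0.114) did not pass although the groups did not overlap, and it was 1.30 without oocyte 3. EEFSEC, which brings selenocysteine to the ribosome, changed by 0.48 and did not pass. None of the 3 modifiers passed in morulae. EEF2K, the kinase that inactivates EEF2, gave 33.9, 29.7 and 30.6 in morulae, against 970.3, 549.5 and 17.3 in oocytes. Oocyte 3 lay below all morula arrays, opposite to the other oocytes; the change of -2.48 (adjusted p = 0.134) became -3.98 without oocyte 3 (adjusted p = 6.73e-04). The methyltransferases EEF1AKMT3 and EEF2KMT changed by -1.39 and 0.10; without morula 3, EEF1AKMT3 changed by -1.97 and passed (adjusted p = 0.0392).

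**Figure D3:**
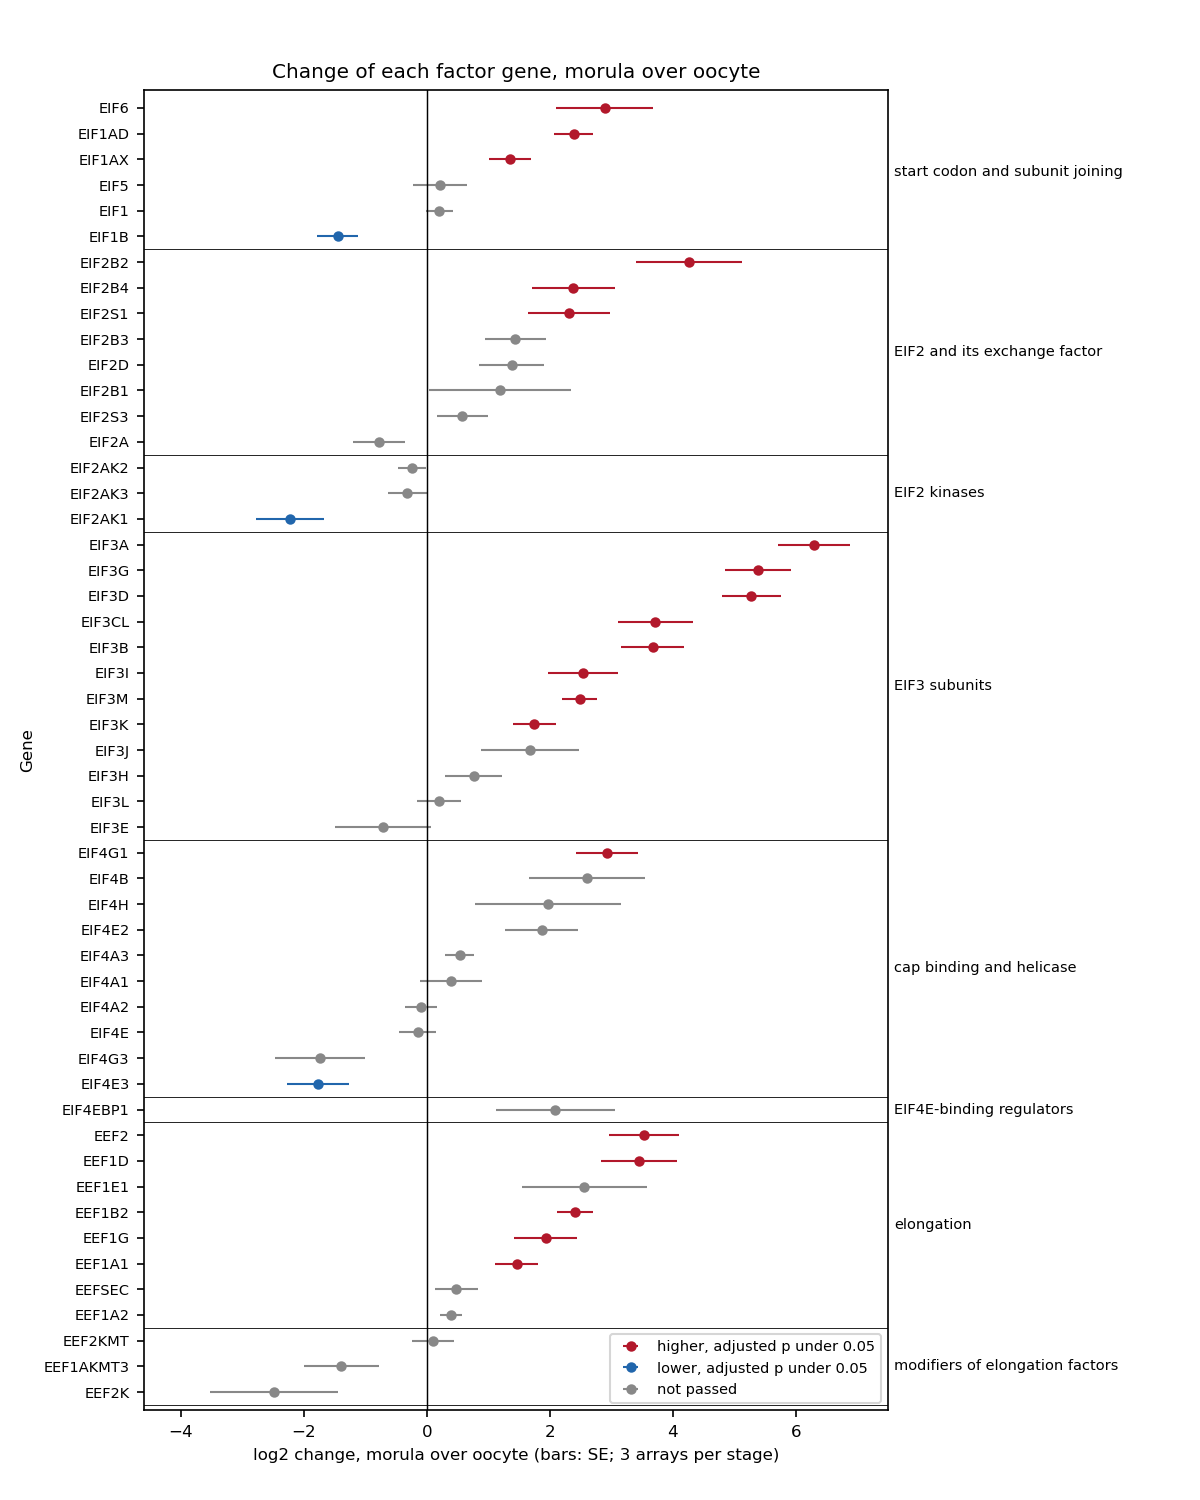
log2 change, morula over oocyte, of the 51 genes with bars of 1 SE (3 arrays per stage), in role groups; red passed as higher, blue as lower and grey did not pass. The 8 rising EIF3 genes and 5 rising elongation factors lie between 1.46 and 6.30, and EIF1B, EIF4E3 and EIF2AK1 lie between -2.23 and -1.45.

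Of these 23 calls, 13 held under every other normalization, pseudocount, filter and variance model. These 13 also held with a gene's probe sets averaged, with only the compared stages fitted, with the replicate block, and without any single array of the compared stages. They were EIF3A, EIF3D, EIF3G, EIF3CL, EIF3I, EIF3K, EIF3M, EIF1AD, EIF2B2, EIF4G1, EEF2, EEF1B2 and EEF1D. When 1 oocyte or morula array at a time was left out, 9 did not hold: the highest adjusted p was 0.120 for EIF2B4, 0.114 for EIF2S1, 0.110 for EIF4E3, 0.107 for EIF6, 0.0937 for EEF1G, 0.0733 for EIF1AX, 0.0725 for EIF2AK1, 0.0560 for EEF1A1 and 0.0515 for EIF1B. EIF3B did not pass when all its probe sets were averaged (adjusted p = 0.0711). Of the 13, only EIF3A had more than 1 probe set, so averaging could not change the values of the others. The second probe set of EIF3A had low signals and did not pass. Over the arrays left out, the change ran from 3.64 to 5.38 for EIF2B2, from 2.35 to 3.96 for EIF6, from 1.86 to 3.34 for EIF2B4, from 3.06 to 4.35 for EEF2, from 1.69 to 3.13 for EIF2S1, from 2.80 to 4.23 for EEF1D and from 3.15 to 4.39 for EIF3CL, each highest without oocyte 3, and from 1.52 to 2.54 for EEF1G, highest without morula 3. The change of EEF1A1 ran from 1.04 to 1.82 and was lowest without oocyte 3. No gene of the 51 that passed changed direction under any alternative.

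Between the morula and the blastocyst, when the embryo forms its cavity and outer epithelium, none of the 51 genes passed limma's test (0.175% of all genes rose and 0.0874% fell). At an unadjusted p under 0.05, 3 were higher and 1 was lower, where 418 of all 9155 genes were higher and 434 lower; the median change was 0.01, against -0.04 over all genes. EIF3A gave 3360.1, 5342 and 3115 in blastocysts, against 4617, 3965 and 4819 in morulae, and EEF2 gave 9527, 11152 and 10559.7 in blastocysts, against 11307, 10108 and 9015 in morulae. Both genes' groups overlapped. EIF4E3 gave 926, 1148 and 373 in blastocysts, against 334, 170.0 and 153 in morulae, so that the groups did not overlap; the change of 1.76 (SE 0.50) had an adjusted p of 0.337. EIF2AK1 also had no overlap, at a change of -1.65 (SE 0.55, adjusted p = 0.448). EIF4G1 gave 4649, 1473 and 5014 in blastocysts, against 6028, 6453 and 6853 in morulae, with blastocyst 2 the lowest; its change of -0.98 did not pass.

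Blastocysts were also set against oocytes, the same oocyte arrays as for the morulae. Here too 20 genes rose (39.2%, where 18.1% of all genes rose) and 2 fell (3.92%, where 9% of all genes fell), with a median of 1.36 against 0.11 over all genes. EIF3A rose by 6.08, EIF3G by 5.39, EIF3D by 5.19 and EIF2B2 by 3.90 (SE 0.59, 0.54, 0.48 and 0.86). EIF3D gave 588, 2068 and 914 in blastocysts, against 14.6, 21.3 and 5.05 in oocytes. EIF3G gave 2642, 6589 and 3170.4 in blastocysts, against 63.8, 113 and 56.9 in oocytes. In both genes blastocyst 2 was the highest and no blastocyst array came near the oocytes. EIF2B2 gave 2154, 6046 and 3857 in blastocysts, against 109, 88.8 and 1152 in oocytes, again without overlap.

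The elongation factors EEF1A1, EEF1B2, EEF1D, EEF1G and EEF2 rose in blastocysts by 1.58 to 3.57. Without oocyte 3 the change of EEF1A1 was 1.16. EIF1AX gave 6339.9, 5803 and 8037 in blastocysts, against 2778, 1802 and 4577 in oocytes, a rise of 1.22 (SE 0.35, adjusted p = 0.0342). EIF1B gave 1849.6, 976 and 1039.8 in blastocysts, against 2516, 3617 and 4087 in oocytes, and fell by 1.42 (SE 0.34, adjusted p = 0.0145). Neither gene's groups overlapped. EIF2S3 rose by 1.37 (SE 0.42, adjusted p = 0.0451) and EIF2B3 by 1.64 (SE 0.49, adjusted p = 0.0435), both only just past the threshold. Without single arrays of these stages EIF2S3 did not pass in 4 of 6 fits (adjusted p up to 0.135). EIF2B3 passed in none of the 6 (adjusted p 0.0638 to 0.145), nor with its probe sets averaged (0.88, adjusted p = 0.0772). The second EIF2B3 probe set gave 29.7, 14.9 and 20.5 in blastocysts, against 18.2, 19.6 and 16.5 in oocytes. EIF2S1 and EIF2B4 did not pass here (1.94 and 1.27, adjusted p = 0.0693 and 0.237), but did without oocyte 3 (2.75 and 2.23, adjusted p = 0.00329 and 0.00142). EEF2K, EIF3J and EIF4B also passed without that array, with changes of -3.41, 2.80 and 3.63. The EIF4E2 probe set used passed too (2.18), but with all arrays its other probe set fell, and no direction is given for EIF4E2. EIF4E3, at 926, 1148 and 373 in blastocysts against 769, 951 and 564 in oocytes, changed by -0.02. EIF4E and EIF4A1 changed by -0.09 and 0.17 and EIF4EBP1 by 1.11, none of them past the test. With the replicate block 24 genes rose in blastocysts, the added ones being EEF1E1, EIF2D, EIF4B and EIF4H (adjusted p = 0.0235, 0.0444, 0.0262 and 0.0126); of all genes 20.7% rose with that block, against 18.1% without it. Of the 22 calls 13 held under all those settings; the others were EIF1AX, EIF1B, EIF2B3, EIF2S3, EIF3B, EIF3I, EIF3K, EIF4G1 and EIF6, whose highest adjusted p lay between 0.0646 for EIF1B and 0.189 for EIF3B. Over the arrays left out, the change ran from 3.28 to 5.02 for EIF2B2, from 2.49 to 4.09 for EIF6, from 3.10 to 4.39 for EEF2, from 2.34 to 3.76 for EEF1D and from 2.54 to 3.79 for EIF3CL, again highest without oocyte 3, and from -4.22 to -3.24 for EIF2AK1, least without blastocyst 2.

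In 1-cell embryos, before the first cleavage, none of the 51 genes passed against oocytes by limma (0.284% of all genes rose and 0.0655% fell). At an unadjusted p under 0.05, 7 were higher and 2 lower, where 646 of all 9155 genes were higher and 180 lower; the median change was 0.33 against 0.05 over all genes. EEF2 gave 1921 and 2377 in 1-cell embryos, against 441, 525 and 2693 in oocytes. EIF2B4 gave 2909.7 and 3914 in 1-cell embryos, against 438, 487 and 3506 in oocytes. In both genes the 1-cell arrays lay well above oocytes 1 and 2 and overlapped oocyte 3. The changes were 1.30 (adjusted p = 0.716) for EEF2 and 1.87 (adjusted p = 0.562) for EIF2B4, and without oocyte 3 they were 2.11 and 2.83 (adjusted p = 0.0236 each). EIF3J passed as well without all arrays numbered 3, at 1.90 (adjusted p = 0.0356), when 2.50% of all genes rose. EIF2D gave 123 and 145 in 1-cell embryos, against 39.9, 45.1 and 22.9 in oocytes, with no overlap and an adjusted p of 0.507. EIF3A gave 22.5 and 212 in 1-cell embryos, against 47.7, 35.6 and 39.8 in oocytes, and its 1-cell arrays lay on either side of the oocytes.

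The cleavage stages had 1 array each, so steps between them have no replicate check and no test. The median signal of the 51 genes was 631 on the 2-cell, 1035 on the 4-cell, 669 on the 8-cell and 2496 on the 16-cell array. It was 1750.5 to 2972 on the morula arrays, against 445, 525 and 1380.4 on the oocyte arrays. Between the 8-cell and the 16-cell array 13 of the 51 genes were at least 4-fold higher (19.1% of all genes were) and none of the 51 was at least 4-fold lower (6.16% of all genes were). The median difference was 1.11 on the log2 scale, against 0.19 over all genes, and 43 of the 51 were higher on the 16-cell array. The 16-cell array also carried a summed signal of 5901 for 6 stromal cell markers, against 131 on the 8-cell array, 167 to 438 in oocytes and 197 to 1733 in morulae. COL1A2, VIM and LUM made up most of it, at 2432, 1959 and 1397, while COL1A1 was at 8.43; the part of this in the 16-cell values was not tested.

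The 4 largest steps were those of EEF2K, EIF2B2, EIF3G and EIF2B1. EEF2K gave 3438 on the 16-cell array, against 17.1 on the 8-cell array, and was back at 29.7 to 33.9 in morulae. A second probe set of EEF2K gave 10.45 on the 16-cell array, against 18.08 on the 8-cell array, so this step rests on 1 probe set. EIF2B2 gave 3789 on the 16-cell array, against 91.7 on the 8-cell array. EIF3G gave 1497 on the 16-cell array, against 44 on the 8-cell array. For EIF2B2 the 16-cell value was already within the range of the morula arrays, and for EIF3G it was below all of them. EIF2B1 gave 1065 on the 16-cell array, against 34.8 on the 8-cell array, but had also been at 1035 on the 4-cell array. EIF2AK2 gave 439 on the 16-cell array, against 22 on the 8-cell array, a difference of 3.58 on the log2 scale. Like EEF2K, it was far lower in every morula at the probe set used. Its second probe set gave 45.9 on the 16-cell array, against 20.9 on the 8-cell array, and 110 in morula 3.

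EIF3A differed in timing. It gave 13.8 on the 2-cell and 9.79 on the 4-cell array, then 1539.8 on the 8-cell and 2496 on the 16-cell array. EIF3D gave 10.1, 30.3, 2.99 and 258 on the same arrays. EEF2 and EIF4G1 were higher on each successive array: EEF2 gave 2788, 3878, 5908 and 11622, and EIF4G1 gave 1579, 1787, 3186 and 5879.7. EIF1AX gave 1232, 2442 and 2189.6 up to the 8-cell array, within or below the oocyte range, and 8117 on the 16-cell array. EIF2S1 gave 467, 1052, 507 and 1730.5, EIF4EBP1 28.6, 5.54, 8.73 and 210.4, and EEF1A1 10449, 9776, 9623 and 11062. EIF4E and EIF4A1 stayed between 4134 and 6395 on these 4 arrays. EEF1B2 was at 14.6 on the 2-cell array, against 1212 or more on all other arrays.

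Of the 20 genes that rose in morulae, 7 were above every oocyte array on each of the 1-cell arrays, 8 on the 2-cell, 11 on the 4-cell, 12 on the 8-cell and 19 on the 16-cell array. The share of these factors was 35.0% on each 1-cell array, where 42.5% and 39.0% of all 1634 genes that rose in morulae were above every oocyte array, and 8 of 20 on the 2-cell array, where 39.2% of the 1634 were. It was 55.0% on the 4-cell array (44.0% of the 1634), 60.0% on the 8-cell array (42.3%) and 95.0% on the 16-cell array (86.4%). The 16-cell array had reached the lowest morula array for 9 of the 20, or 45.0%, and for 49.6% of the 1634. The share of rising factors that had reached the morula range was thus near that of rising genes in general.

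Several genes had probe sets that disagreed. EEF1A1 has a second probe set that gave 4679, 4961 and 2299 in morulae, against 3581, 2296 and 389.6 in oocytes, and did not pass (1.33, adjusted p = 0.258). It was low on the cleavage arrays, at 108 on the 8-cell array, where the first probe set gave 9623. An Affymetrix control probe set for the middle of the same transcript gave 10.8, 10.8 and 6.91 in morulae, against 793, 214 and 44 in oocytes, opposite in direction to the probe set used. With all its probe sets averaged, EEF1A1 did not pass in morulae (1.40, adjusted p = 0.0898). The control probe set for its 3′ end gave 4685, 4772 and 2326 in morulae, against 3685, 2319.8 and 374 in oocytes, close to the second probe set. For EIF4E the 3′ control probe set gave 5058, 3776 and 3799 in morulae, against 5494, 4325 and 3982 in oocytes, close to the probe set used. Its middle control gave 322, 318 and 3372 in morulae, against 213, 417 and 934 in oocytes, lower than the 3′ control on these arrays and with overlapping groups.

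EIF4E2, a cap-binding relative of EIF4E known to repress translation, had probe sets that moved in opposite ways. The one used gave 3466, 2758 and 1317 in morulae, against 379, 425 and 1511 in oocytes (1.87, adjusted p = 0.0561; 2.49 without oocyte 3, adjusted p = 0.00811). The other gave 148, 114 and 183 in morulae, against 689, 616 and 536 in oocytes (-1.95, adjusted p = 0.0506). In blastocysts the second fell by 3.03 against oocytes (adjusted p = 0.00659), at 119.6, 114 and 9.37 in blastocysts, while the first did not pass (1.55, adjusted p = 0.104). No direction is therefore given for EIF4E2. The second probe sets of EIF3A and EIF3B had low signals in morulae, 2.01 to 9.37 and 5.39 to 23.2, and did not pass. That of EIF4E3 changed by -0.45 and did not pass, and that of EIF2S3 rose in blastocysts by 1.33 (adjusted p = 0.0183). The EIF4H rise in blastocysts with the replicate block is that of the probe set used. Another EIF4H probe set gave 80.3, 64.3 and 23.5 in blastocysts, against 36.9, 48.5 and 22.1 in oocytes. The last one gave 16.0, 10.8 and 60.8 in blastocysts, against 25.3, 26.2 and 71.3 in oocytes.

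**Figure D4:**
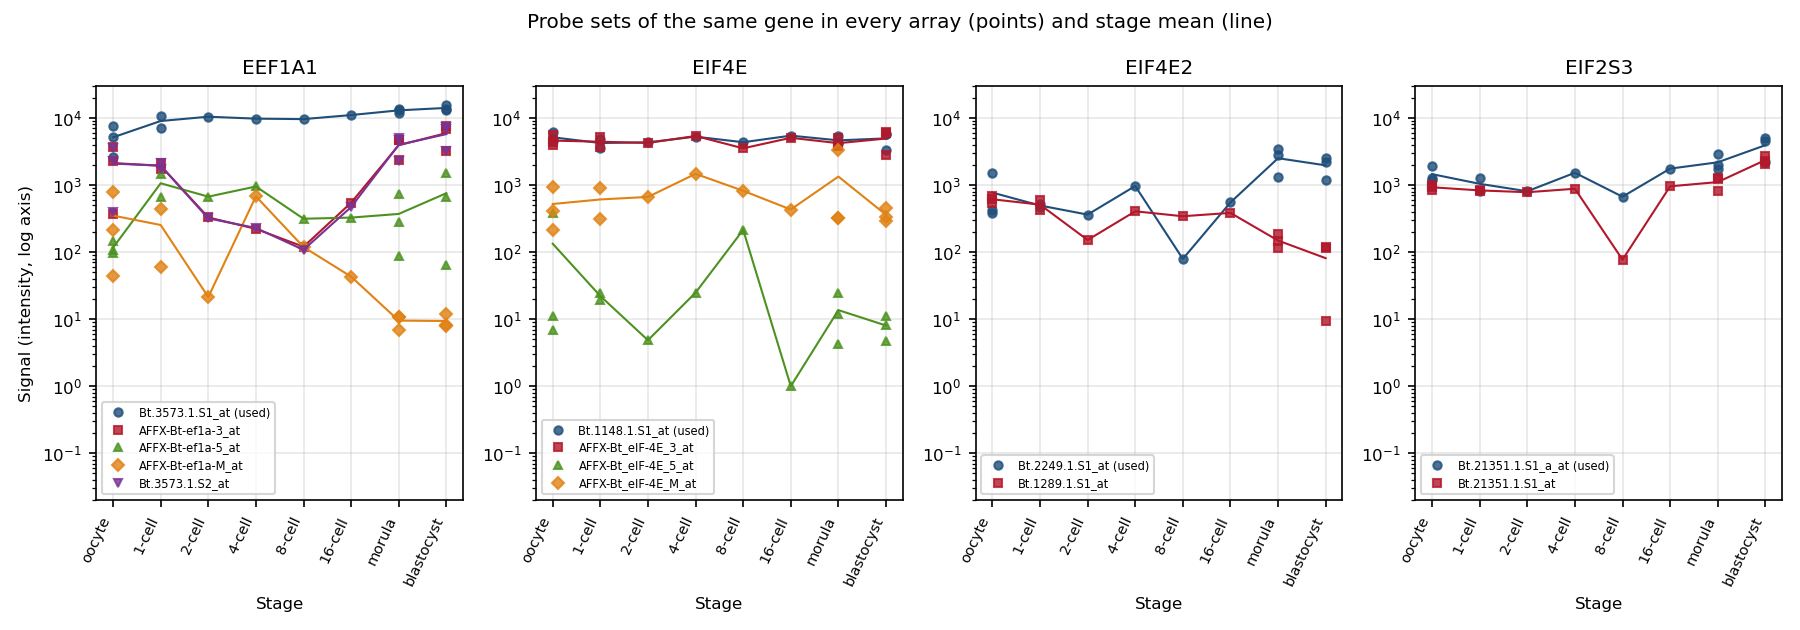
Signal (intensity, log axis) of every probe set of 4 genes on every array, points per array with lines through stage means; the probe set used for the gene is named as such and names beginning AFFX are the manufacturer's control probe sets. The EIF4E probe sets at the 3′ end coincide and those of EEF1A1 part on the cleavage arrays. Those of EIF4E2 change order more than once before the morula and lie apart in morulae and blastocysts.

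Other genes of the pathway were followed as a list of 44, of which 34 were measured. In morulae against oocytes 10 of the 34 rose (29.4%, where 17.8% of all genes rose), 4 fell (11.8%, where 8.67% of all genes fell) and 20 did not pass, with a median change of 0.89. In blastocysts against oocytes 10 rose (29.4%, where 18.1% of all genes rose) and 3 fell (8.82%, where 9% fell), and none passed in 1-cell embryos against oocytes or in blastocysts against morulae. ETF1, the factor that reads stop codons, rose by 3.86 in morulae (SE 0.57, adjusted p = 0.00119). Like EIF3A it was already high on the 8-cell array, at 2750.4 against 238 to 467 in oocytes. RPS6, a small-subunit protein phosphorylated by S6 kinases, rose by 3.37 and PAIP2, an inhibitor of poly(A)-binding protein, by 3.52. RPS6KB2, an S6 kinase, rose by 5.27 in morulae (SE 1.11, adjusted p = 0.00841).

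The genes of this list that fell in morulae were CPEB4, MKNK1, HBS1L and PAIP1, with log2 changes of -4.18, -2.18, -1.87 and -1.83. CPEB4 binds the tails of stored messenger RNAs and takes part in their translation in maturing eggs, and MKNK1 phosphorylates EIF4E. HBS1L rescues stalled ribosomes and PAIP1 stimulates initiation through poly(A)-binding protein. PAIP1 gave 2358, 1258 and 4418 in morulae, against 8546, 8444 and 8282 in oocytes, and had stood between 6979.8 and 10199.5 on the 6 arrays in between. In blastocysts the largest rises of the list were RPS6 at 3.66, ETF1 at 3.60, TUFM, the mitochondrial elongation factor, at 3.53 and PAIP2 at 3.47, and MKNK1 and PAIP1 fell, with changes of -2.22 and -2.12, as did CPEB4.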

How the data were processed

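The authors deposited 1 table of linear intensity per probe set for the 15 arrays; how probes were summarised and arrays scaled is not given in the sources used here. Per the labels' protocols RNA was amplified in 3 rounds. Of 24128 probe sets, 112 controls were left out and 24016 tested on log2(value + 16) with limma 3.58.1 (R 4.3.3): 1 mean per stage over all arrays, 7 residual degrees of freedom, a variance trend, with p-values adjusted over every tested probe set by Benjamini-Hochberg. The number of arrays limits the precision, and single-array stages were compared by 4-fold differences without a test. Symbols came from GEO's platform annotation (13292 probe sets with 1 symbol, 86 with several, 10638 with none; probe sets with several were not used), and all 51 members kept their symbol in RefSeq's gene table (assembly ARS-UCD2.0). No coordinates or sequences were used.

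The members and lists were chosen with earlier results of these data known. Genes were given by role. Array values were given for the 4 largest rises and falls without overlap per comparison, the 4 largest steps between the 8-cell and 16-cell arrays, and a fixed set (EIF1AX, EIF2S1, EIF3A, EIF4E, EIF4A1, EIF4G1, EIF4EBP1, EEF1A1 and EEF2); further genes given with array values (such as EIF1, EIF3E, EIF4B and EIF4E2) were chosen after their values were seen. Pathway genes past the test were limited to 4 each way per comparison.

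Replicate numbers came from the titles. Deviations of same-numbered arrays from the mean of their stage correlated at 0.142, 0.107 and 0.182 for morulae and oocytes, 0.278, 0.276 and 0.285 for blastocysts and oocytes, and 0.195, 0.106 and 0.306 for blastocysts and morulae, but 0.183 and -0.115 for 1-cell embryos and oocytes. Some arrays of different number correlated as highly (0.155 for morula 1 with oocyte 2, and 0.304 for blastocyst 2 with morula 1), so these values do not tell pairing from another shared deviation. The titles do not say that same-numbered arrays share a source, so the block was given as an alternative only. The alternatives were a replicate block, other variance models, other pseudocounts, quantile normalization or centring on the median, and the mean of a gene's probe sets. Further ones were no lowest 33% of probe sets, fits of only 2 stages, and each array of the 2 compared stages left out in turn. Chosen after seeing the data were leaving out the arrays numbered 3 and the spike-in class as a block or alone. Python 3.11.15 with matplotlib 3.10.9 drew the figures.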

Additional observations from a re-analysis of the deposited data

How the results depend on the processing

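No gene called here changed direction under any alternative. Leaving out 1 array at a time gave 14 to 23 genes higher and 0 to 4 lower in morulae against oocytes. Of all genes, 13.1% to 19.1% were then higher and 6.06% to 9.66% lower. Blastocysts against oocytes gave 13 to 24 higher and 1 to 3 lower, where 13.6% to 18.5% and 6.56% to 9.73% of all genes were. Leaving out 1 oocyte array gave 0 to 2 higher in 1-cell embryos against oocytes, the 2 without oocyte 3. There 0.732% of all genes were higher. Without all arrays numbered 3, 3 genes were higher in 1-cell embryos, 5 were lower in morulae and 4 were lower in blastocysts, each against oocytes; 26 and 27 were higher in morulae and blastocysts. Of all genes, 26.4% were then higher and 12.9% lower in morulae, 24.8% and 12.6% in blastocysts, and 2.50% and 0.306% in 1-cell embryos. In a fit of blastocysts and oocytes alone 1 gene was lower in blastocysts, where 6.74% of all genes were. A fit of the 6 arrays without spike-in signal has 2 residual degrees of freedom and 1 oocyte array, which is assumed to vary like the other groups. In it the morula falls of EIF1B, EIF2AK1 and EIF4E3 did not pass (adjusted p = 0.207, 0.0956 and 0.0863). On the 9 arrays with spike-in signal 0 were higher and 0 lower in morulae and in blastocysts, a fit with 1 residual degree of freedom that called 0 of all genes. With the replicate number as a block 23 genes were higher and 3 lower in morulae, 24 higher and 2 lower in blastocysts, and 0 in the other comparisons; of all genes 20.8% and 20.7% were higher in morulae and blastocysts. Median centring moved the median change of all probe sets between morulae and oocytes to -0.14 (0.04 as deposited, -0.06 after quantile normalization). It left 17 genes higher in morulae, where 16.2% of all genes were higher (17.8% as deposited). The cause of these differences was not tested. Low signals have no stated background limit, and stages with 1 array have no error.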
